A study of Mus musculus with 18 samples.

Results

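The report covers 9 mouse genes for transcription regulators of keratinocyte differentiation: Trp63, Grhl1, Grhl3, Gata3, Ovol1, Hopx, Cebpb, Elf3 and Ehf. Every probe set whose symbol in the platform annotation is exactly one of these names was taken, which gave 18 of 45037 probe sets, with all 9 genes represented. Of the 18, 9 probe sets from 7 genes varied over the arrays. The other 9 had a range under 0.01 log2, as did 33091 probe sets of the whole table (73.5%), and gave no information. They include the single probe sets of Gata3 and Elf3, 3 of 4 for Trp63, 3 of 4 for Ehf and 1 of 2 for Ovol1.

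The study asked what repeated barrier disruption did to skin and what oral winged bean extract changed. The animals were hairless albino males of the HR-1 strain, given in the labels as 6 weeks old, and RNA from their whole dorsal skin was hybridised to 18 Affymetrix arrays in 3 groups of 6. NT skin was left unstripped. TS skin was stripped with cellophane tape in 3 sessions per week over 4 weeks, each ended once transepidermal water loss, a measure of barrier leakage, was 70 to 100 g/m2/h. WB skin was stripped likewise, and the mice swallowed winged bean extract at 200 mg/kg/day, dissolved in 0.3% carboxymethylcellulose, 5 times per week for 5 weeks. The labels mention no vehicle dosing of NT or TS mice. A hairless strain is a limited model for genes also used by hair follicles. Whole skin also holds muscle, fat, immune and dermal cells, so fewer cells of a type and less RNA per cell cannot be told apart.

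The epidermis renews itself from a basal layer whose daughter cells stop dividing, move up and turn into the dead, cross-linked stratum corneum. p63, encoded by Trp63, maintains the basal layer and the stratified fate. Grainyhead-like factors (Grhl1, Grhl3), C/EBP beta (Cebpb), the repressor OVOL1, the homeodomain protein HOPX, GATA3 and the epithelial ETS factors ELF3 and EHF act as cells commit to differentiation and build the barrier.

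Promoter sequences are shown for 3 members on which the results turn: Grhl3, the largest rise with tape stripping among the members in the promoter table used, Cebpb, whose probe sets moved together, and Hopx, whose probe sets moved apart. RefSeq (GRCm38.p6) gave 8 windows of 300 bases for 6 of the 9 members, from 250 bases before to 50 after a gene start; Trp63, Ovol1 and Ehf were not matched. Capitals mark 3 motifs on either strand, chosen after the sequences were read: the CCAAT box, the letters TATAAA and the letters TGACG. Hopx has 2 annotated starts, and both windows are printed.
Grhl3, chr4:135573583-135573882, minus strand, promoter: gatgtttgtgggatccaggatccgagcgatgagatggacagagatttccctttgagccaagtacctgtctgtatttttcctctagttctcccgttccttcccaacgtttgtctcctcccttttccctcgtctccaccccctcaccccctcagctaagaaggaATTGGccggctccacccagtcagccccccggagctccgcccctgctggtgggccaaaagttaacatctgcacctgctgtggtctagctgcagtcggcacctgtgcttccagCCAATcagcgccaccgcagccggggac
Cebpb, chr2:167688665-167688964, plus strand, promoter: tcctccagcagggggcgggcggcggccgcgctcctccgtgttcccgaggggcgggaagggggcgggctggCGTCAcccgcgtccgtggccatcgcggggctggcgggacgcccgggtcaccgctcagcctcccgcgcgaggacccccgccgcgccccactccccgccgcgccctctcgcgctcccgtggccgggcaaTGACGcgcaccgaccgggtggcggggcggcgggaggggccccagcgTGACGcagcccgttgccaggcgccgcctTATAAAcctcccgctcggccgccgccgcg
Hopx, first window, chr5:77115074-77115373, minus strand, promoter: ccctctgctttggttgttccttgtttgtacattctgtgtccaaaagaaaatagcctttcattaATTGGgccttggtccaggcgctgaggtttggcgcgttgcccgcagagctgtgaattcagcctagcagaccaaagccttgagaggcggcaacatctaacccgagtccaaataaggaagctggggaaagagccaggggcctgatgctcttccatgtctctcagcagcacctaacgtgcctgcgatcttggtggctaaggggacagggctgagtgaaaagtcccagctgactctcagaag
Hopx, second window, chr5:77095218-77095517, minus strand, promoter: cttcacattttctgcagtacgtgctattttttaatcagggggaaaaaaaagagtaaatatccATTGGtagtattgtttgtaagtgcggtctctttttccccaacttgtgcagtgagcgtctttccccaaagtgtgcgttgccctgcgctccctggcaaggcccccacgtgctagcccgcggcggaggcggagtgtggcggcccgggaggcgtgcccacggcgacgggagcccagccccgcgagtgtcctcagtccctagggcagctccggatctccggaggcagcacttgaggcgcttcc

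The Cebpb window holds TGACG, the core letters of the cyclic AMP response element, 3 times and TATAAA once, and its GC content is 80.7% against a median of 52.7% over all 32851 windows. That TATAAA begins 21 bases after the annotated gene start, and the second CCAAT of the Grhl3 window 23 bases after its start. TGACG occurs in 20.8% of all windows, TATAAA in 13.6% and CCAAT in 37.4%; CCAAT is found in 5 of the 8 member windows. Letters bound by the members' own families were also searched on both strands. The grainyhead letters AACNGGTT (2.09% of all windows), the C/EBP letters TTGCNNAA (10.8%) and the AP-1 letters TGANTCA (7.81%) have no match in the 8 windows. The ETS letters CCGGAA (14.9%) match once, in Gata3. No match says only that these letters are not in these 300 bases.

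Before the comparisons, array-wide facts bear on what can be read. The control probe sets for the 3' and 5' ends of beta-actin differed by -0.65 to -0.38 log2 on NT arrays, by 0.08 to 0.26 on TS arrays and 5.27 to 5.96 on WB arrays (two-sided exact permutation test, p = 0.00216 for each pair of groups, the smallest that 6 against 6 arrays allow, adjusted over 9 tests 0.00278). The same measure for Gapdh was -0.77 to -0.48, -0.62 to -0.31 and 3.45 to 4.41. All 6 WB arrays thus stood apart from the other 12, and the extract and this difference between arrays cannot be told apart in any comparison with WB. On NT 5 alone the summed liver markers reached 19.77 against an NT median of 10.01, and every call of a member in TS against NT was also made without NT 5. All 13 keratinocyte markers were informative, and their summed level was 15.53 to 16 on the NT arrays, 16.42 to 16.73 on the TS arrays and 16.17 to 16.39 on the WB arrays.

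In stripped skin, transcripts of Ovol1, Grhl3, Trp63, Ehf and Cebpb were higher than in unstripped skin, by 1.04 log2 for Ovol1 down to 0.34 for one Cebpb probe set. A probe set was called higher or lower when limma's adjusted p over all 45037 probe sets was under 0.05 and the difference at least 0.01 log2. Of the 18 member probe sets, 9 of them informative, 6 (33.3%) were higher in TS and 0 lower, from 5 genes. Over the whole array 10.1% were called, 4.97% higher and 5.14% lower, and over the 11946 informative probe sets 38.1%, 18.7% higher and 19.4% lower. At limma's unadjusted p under 0.05, Grhl1 would be added in the same direction. The 9 informative member probe sets differed by 0.21 to 1.04 with a median of 0.41, beside a median of 0.0032 over all informative probe sets. In the plot of the members by array, the groups NT and TS do not overlap for the same 6 probe sets, against 6.6% of all probe sets and 24.9% of informative ones.

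**Figure D1:**
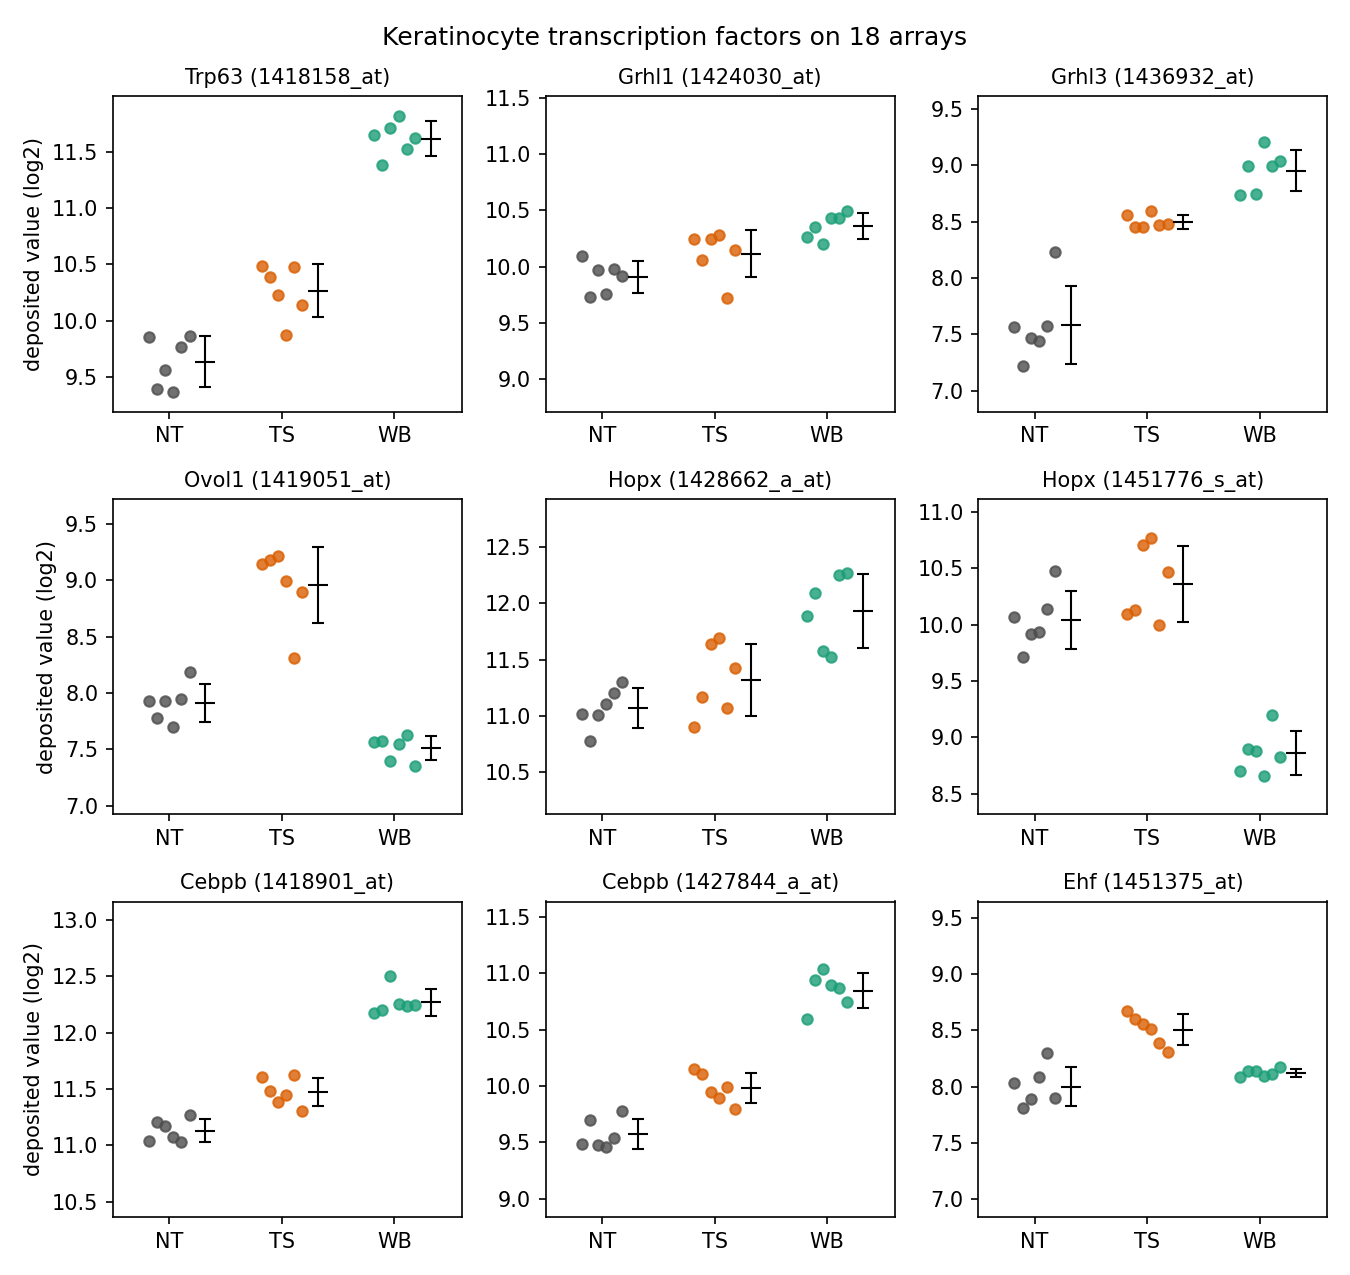
Deposited log2 values of the 9 informative probe sets of the members, 1 point per array in NT, TS and WB (6 each); the bar is the mean and its whiskers the SD, and every panel spans 2.8 log2 units. Ovol1 and Ehf are highest in TS, Trp63, Grhl3 and Cebpb are highest in WB, and the Hopx probe sets take opposite courses in WB.

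p63, the factor of the basal layer, was read by probe set 1418158_at. Trp63 values ran from 9.36 through a median of 9.67 to 9.87 in NT, and from 9.87 through 10.31 to 10.49 in TS. Every TS array lay above every NT array, with TS 4 only just above NT 6. The mean was 9.64 ± 0.23 (SD, n = 6) in NT and 10.27 ± 0.24 (n = 6) in TS, a rise of 0.63 (SE 0.12, 1.55-fold if the deposited logarithm is to base 2, limma adjusted p = 0.00178). The other 3 Trp63 probe sets were constant, and the values do not show which p63 isoforms were present.

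Among the grainyhead-like factors the pair differed in size. Grhl3, needed in mice for the embryonic skin barrier and for wound closure, ran from 7.22 through 7.52 to 8.23 in NT and from 8.45 through 8.47 to 8.60 in TS. NT 6 lay well above the other NT arrays yet below every TS array, and the TS arrays were tightly grouped. Grhl3 rose by 0.92 (SE 0.13, 1.89-fold, limma adjusted p = 0.000192), and by 1.05 without NT 6. Grhl1, known as an activator of desmosomal cadherin genes, ran from 9.73 through 9.94 to 10.09 in NT and from 9.72 through 10.19 to 10.28 in TS, and the groups overlapped. Its difference of 0.21 (SE 0.09, 95% interval 0.01 to 0.40 before adjustment) was not called (limma adjusted p = 0.163). A single array decided this: without TS 5, the lowest array of all 18, the difference was 0.28 and passed (limma adjusted p = 0.0132), and with array weights it passed at 0.0323. The difference between the changes of Grhl1 and Grhl3 was not tested.

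OVOL1 is a zinc finger repressor that helps keratinocytes leave the cell cycle. Ovol1 showed the largest difference among the members between TS and NT. Its values ran from 7.70 through 7.93 to 8.19 in NT and from 8.32 through 9.07 to 9.22 in TS. No TS array reached down to NT, although TS 5 at 8.32 came close to NT 6 at 8.19. The mean rose from 7.91 ± 0.17 to 8.96 ± 0.34 (n = 6 per group), by 1.04 (SE 0.13, 2.06-fold, limma adjusted p = 6.6e-05). Its second probe set, 1419052_at, was constant at 7.25.

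C/EBP beta, a leucine zipper factor that promotes expression of the early differentiation keratins, had 2 informative probe sets. On 1418901_at, Cebpb ran from 11.03 through 11.12 to 11.27 in NT and from 11.30 through 11.47 to 11.62 in TS. On 1427844_a_at it ran from 9.46 through 9.51 to 9.77 in NT and from 9.79 through 9.97 to 10.15 in TS. On both, the groups sat next to each other without overlap. The rises were 0.34 (SE 0.07, limma adjusted p = 0.00179) and 0.41 (SE 0.08, limma adjusted p = 0.00240), or 1.27-fold and 1.33-fold. Cebpb is also expressed in fat cells and macrophages; of their markers on the array, 6 of 8 for adipocytes were lower in TS and none higher, and 9 of 11 for macrophages were lower and 1 higher, against 7.93% of genes lower and 7.27% higher. The part of these cells in the Cebpb values was not tested.

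EHF, an ETS factor restricted to epithelia, was read by 1451375_at, the single informative probe set of its 4. Ehf ran from 7.81 through 7.96 to 8.30 in NT and from 8.30 through 8.53 to 8.67 in TS, and the groups met at the edge, with TS 6 just above NT 5. The rise was 0.51 (SE 0.08, 1.42-fold, limma adjusted p = 0.000268).

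HOPX, a small homeodomain protein that does not bind DNA itself and also marks hair follicle stem cells, was not called. On 1428662_a_at, Hopx ran from 10.78 through 11.06 to 11.31 in NT and from 10.90 through 11.30 to 11.69 in TS. On 1451776_s_at it ran from 9.71 through 9.999 to 10.48 in NT and from 9.99 through 10.30 to 10.77 in TS. Both pairs of groups overlapped widely. The differences were 0.25 (95% interval -0.10 to 0.59, limma adjusted p = 0.433) and 0.32 (-0.01 to 0.65, limma adjusted p = 0.215), and these intervals do not show that Hopx was equal in the groups. Both probe sets rated the same arrays high within the groups: Pearson's r was 0.910 in NT and 0.959 in TS (6 arrays each, two-sided exact permutation p = 0.0139 for each, adjusted over 6 relations 0.0417; Spearman's rho 0.943 in each, exact permutation p = 0.0167, adjusted 0.05). Without the 2 arrays farthest from the median, r was 0.613 in NT and 0.999 in TS.

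**Figure D2:**
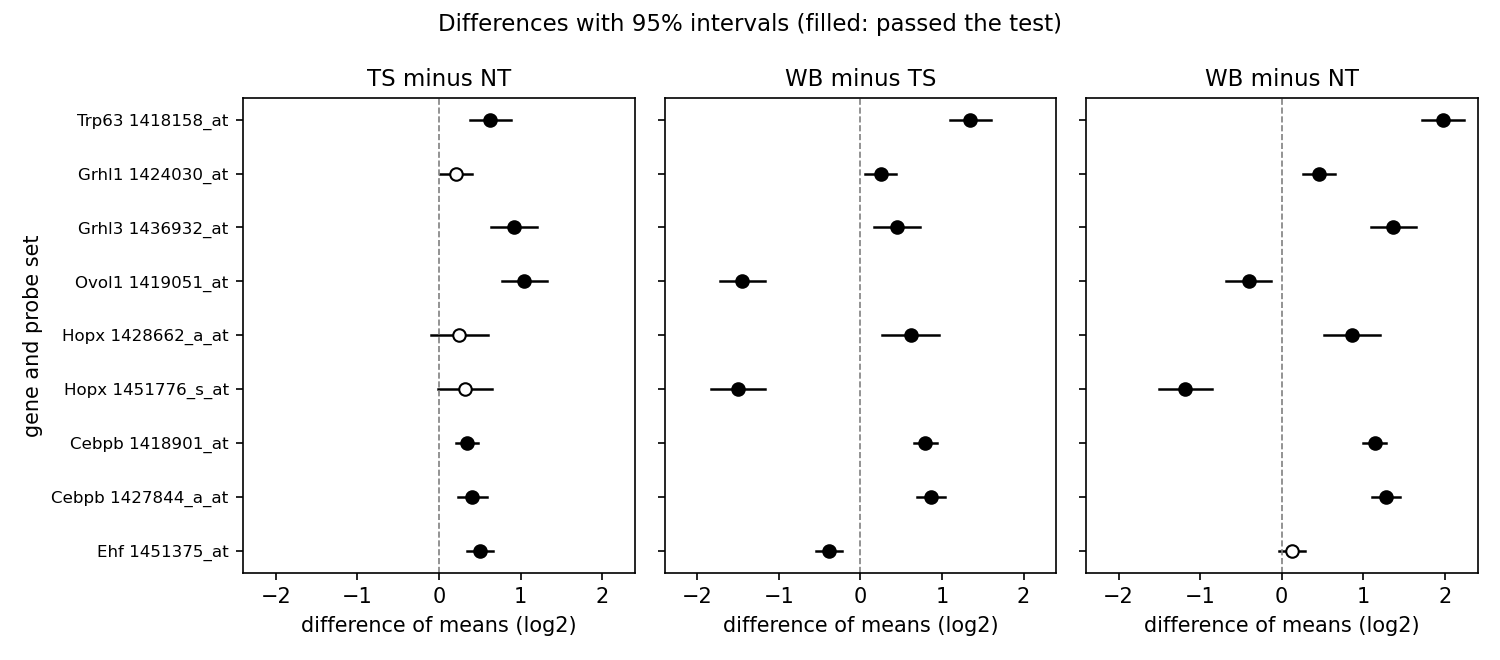
Differences of group means (log2, horizontal axis) for the 9 informative member probe sets in the 3 comparisons, with 95% intervals from the limma fit; filled points passed the test and open points did not. In TS minus NT all points lie above 0, from 0.21 to 1.04, whereas in WB minus TS they lie on both sides, from -1.502 to 1.35.

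The list of other epidermal transcription factors held 55 genes on the array, 37 of them informative. In TS against NT, 12 were higher and 4 lower, against 7.27% and 7.93% of all genes. Only 6842 of all 18193 genes were informative, so shares of all genes are low beside lists with more informative genes. Of informative probe sets 18.7% were higher and 19.4% lower. The same limit holds for the target and marker lists. The median of the informative genes of the list was 0.11 beside 0.00 over all informative genes. The 4 genes of the list with the smallest p were Id2, Grhl2, Satb1 and Dlx5. Grhl2, the third grainyhead-like factor, rose by 0.56 (SE 0.07, limma adjusted p = 9.7e-05). Dlx5, a homeobox gene, rose by 0.18 (SE 0.03). Id2, an inhibitor of basic helix-loop-helix factors, fell by 0.73 (SE 0.08), and Satb1, a chromatin organiser, fell by 0.76 (SE 0.10). Klf4, a zinc finger factor needed for the barrier in mice, rose by 0.73 (SE 0.11); Fos, an AP-1 subunit, had the largest rise in the list, 3.32 (SE 0.86, limma adjusted p = 0.0137). Both were named after their values were seen.

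**Figure D3:**
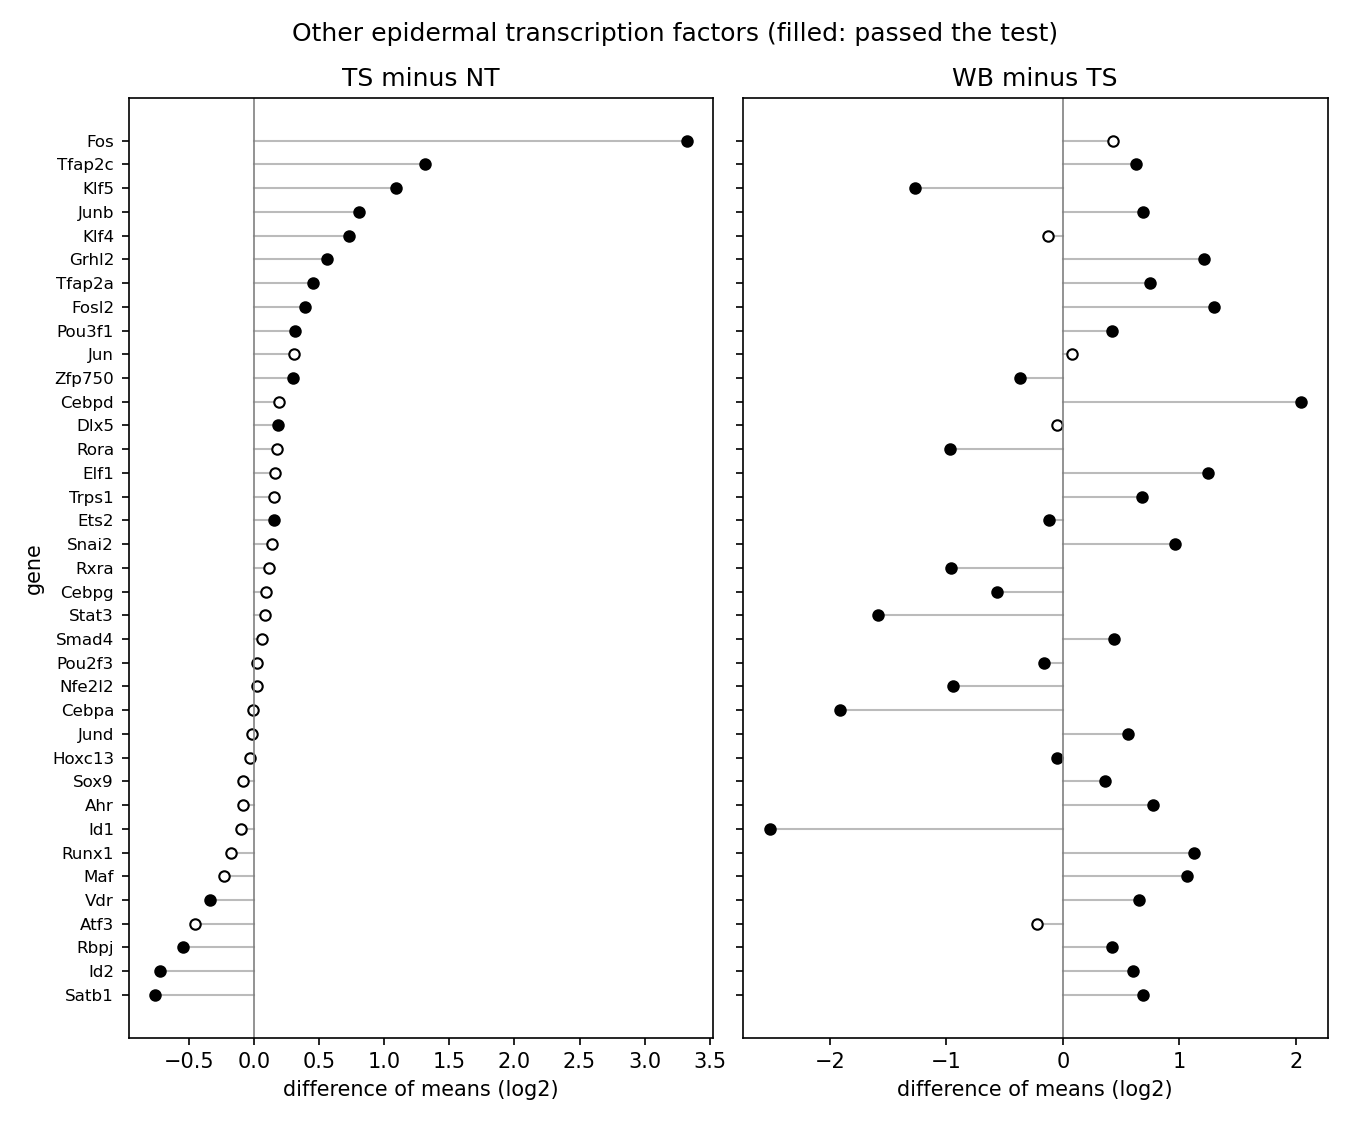
Differences of group means (log2, horizontal axis) for the 37 informative genes of the list of other epidermal transcription factors, ordered by TS minus NT (left), with WB minus TS in the same order (right); filled points passed the test. At left 12 filled points lie above 0 and 4 below; at right 20 lie above and 12 below.

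Genes described as targets of the members were followed next. Of 18 genes named as p63 targets on the array, 7 were higher and 1 lower in TS, where 7.27% of all genes were higher and 7.93% lower, with a median of 0.29 over the 14 informative ones beside 0.0019 over all informative genes. Alox12b, a lipoxygenase of barrier lipid processing, rose by 0.75 (SE 0.12), Perp, a desmosomal protein, by 0.35 (SE 0.06) and Zfp750, a differentiation factor, by 0.30 (SE 0.05), while Satb1 fell. Of 13 genes named as targets of the other members, 7 were higher and 1 lower, with a median of 0.55 over 11 informative ones. Tgm1, the transglutaminase of the cornified envelope, rose by 1.23 (SE 0.11). Krt1, the early differentiation keratin, rose by 1.34 (SE 0.17) and Tgm3, another transglutaminase, by 1.66 (SE 0.26). Id2, known to be repressed by OVOL1 in mouse germ cells, was the one that fell. Satb1, Zfp750, Id2 and Myc are also in the list of other epidermal transcription factors, so these counts share genes.

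Markers of other cell types were counted beside these rises. In TS 10 of 13 keratinocyte markers were higher and 0 lower, against 7.27% and 7.93% of all genes. This count is not separate from those of the targets. Krt5, Krt14, Sfn and Perp are also among the p63 targets. Krt1, Krt10, Ivl, Dsg1a, Tgm3 and Cdh1 are among the targets of the other members. All 8 inner root sheath markers on the array were lower, as were 3 of 7 bulge and outer root sheath markers, 10 of 12 skeletal muscle markers, 3 of 7 sebaceous gland markers and 3 of 9 T cell markers, with none higher in these lists. No liver marker of 10 was called by limma. The summed level of the muscle markers was 16.62 to 17.92 in NT and 15.18 to 15.71 in TS, that of the adipocyte markers 14.47 to 15.25 and 13.45 to 13.98, and that of the macrophage markers 15.27 to 15.78 and 14.65 to 15.26. The 3' signal of actin relative to its 5' signal was also higher in TS, by 0.66. The part of these shifts in the rises of the members was not tested.

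In stripped skin of extract-fed mice, Trp63, Cebpb, Grhl3, Grhl1 and one Hopx probe set were higher than in TS, and Ovol1, Ehf and the other Hopx probe set were lower. All 9 informative probe sets passed, 6 higher and 3 lower. As a share of the 18 this is 50%, but 88.8% of all informative probe sets passed as well (47.1% higher, 41.7% lower), and 23.6% of all probe sets (12.5% higher, 11.1% lower), so the count of calls says little about the members. The groups did not overlap for 7 of the 18, all among the 9 informative, against 20.6% of all probe sets and 77.6% of informative ones.

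Trp63 ran from 11.38 through 11.63 to 11.82 in WB, above every TS and NT array. It rose over TS by 1.35 (SE 0.12, 2.55-fold, limma adjusted p = 9.2e-08). Cebpb was likewise highest in WB, from 12.18 through 12.24 to 12.50 on 1418901_at and from 10.60 through 10.88 to 11.04 on 1427844_a_at, with rises over TS of 0.79 (SE 0.07) and 0.87 (SE 0.08). Both probe sets gave nearly the same difference in each comparison.

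Grhl3 ran from 8.73 through 8.997 to 9.20 in WB, just above the TS arrays, and rose by 0.45 (SE 0.13, limma adjusted p = 0.00924). Grhl1 ran from 10.20 through 10.39 to 10.49 in WB and overlapped TS. Its rise of 0.25 (SE 0.09, limma adjusted p = 0.0347) was lost with the replicate number as a block (limma adjusted p = 0.0695), in a fit of the 12 TS and WB arrays (0.0602), and without any one of TS 2, TS 5, WB 2, WB 4, WB 5 or WB 6 (0.0531 to 0.0776); without TS 5 the difference was 0.17.

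Ovol1 ran from 7.35 through 7.56 to 7.62 in WB, below every NT and TS array. It fell by 1.45 against TS (SE 0.13, 2.73-fold, limma adjusted p = 1.0e-07). Ehf ran from 8.08 through 8.12 to 8.18 in WB, within the NT range and below every TS array, and fell by 0.38 (SE 0.08, limma adjusted p = 0.000467).

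Hopx gave opposite answers. On 1428662_a_at WB values ran from 11.53 through 11.99 to 12.27 and rose by 0.62 over TS (SE 0.16, limma adjusted p = 0.00501), with overlap of the groups. On 1451776_s_at they ran from 8.66 through 8.85 to 9.20 and fell by 1.502 (SE 0.15, limma adjusted p = 4.9e-07), below every TS array. In the platform's naming, a suffix _a marks probes shared by transcripts of one gene and _s probes shared by several transcripts that can belong to different genes. No direction is therefore given for Hopx in WB skin. Such disagreement was common there: of 2191 genes with more than one informative probe set, 984 (44.9%) had probe sets called in both directions in WB against TS and 33 (1.51%) in TS against NT. Within WB the Hopx probe sets correlated at r = 0.582 (6 arrays, two-sided exact permutation p = 0.169, adjusted 0.169; rho 0.543, exact permutation p = 0.297, adjusted 0.356; r = 0.646 without the 2 farthest arrays). For Cebpb, r was 0.795 in NT, 0.749 in TS and 0.685 in WB, none passing (exact permutation p of 0.0917, 0.0778 and 0.0722, each 0.11 adjusted; rho 0.486, 0.771 and 0.600, exact permutation p of 0.356, 0.103 and 0.242, adjusted 0.356, 0.206 and 0.356), and without the 2 farthest arrays 0.707, 0.792 and -0.578. The relation within WB rests on those arrays.

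**Figure D4:**
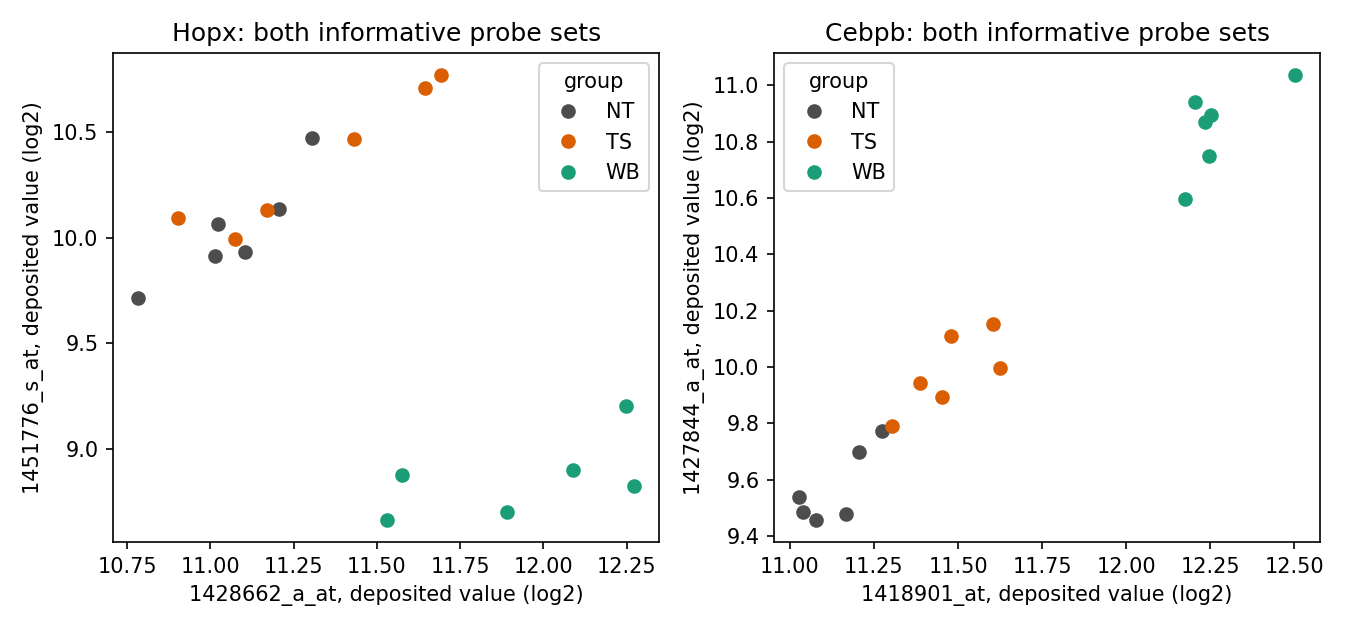
Each point is 1 array, placed by its deposited log2 values on both informative probe sets of Hopx (left) and of Cebpb (right), coloured by group. The Cebpb points rise along 1 line from NT through TS to WB, while for Hopx the 6 WB arrays lie lower on 1451776_s_at (8.66 to 9.20) and reach higher on 1428662_a_at (up to 12.27) than the NT and TS arrays.

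In WB against TS, 20 of 55 other epidermal transcription factors were higher and 12 lower, against 18.2% and 14.8% of all genes. The median over informative ones was 0.43 beside 0.16 over all informative genes. All 32 calls fell among the 37 informative genes of the list, and 88.8% of all informative probe sets were called. The count of calls thus says little about this list. The split was 38 higher and 10 lower after median centring and 39 and 10 after quantile normalization. These scalings add a difference to probe sets that are constant as deposited, and their counts include such genes. Stat3, a signal-dependent factor, fell by 1.58 (SE 0.04) and Nfe2l2, which drives antioxidant genes, fell by 0.94 (SE 0.07), while Grhl2 rose by 1.21 (SE 0.07) and the ETS factor Elf1 by 1.25 (SE 0.09). Among genes named as p63 targets 6 of 18 were higher and 7 lower (median -0.13). The basal keratin Krt14 fell by 2.88 (SE 0.18), its partner Krt5 fell by 3.20 (SE 0.23), and Alox12b fell by 1.49 (SE 0.12). Fgfr2, a growth factor receptor, rose by 0.86 (SE 0.07). Each of these genes was read by a single probe set, and their relation to the higher Trp63 was not tested. The part of the 3' to 5' difference of the WB arrays in these values was not tested either. Among targets of the other members 3 of 13 were higher and 3 lower (median 0.00). Tgm1 fell by 1.89 (SE 0.11) and the claudin Cldn4 fell by 1.34 (SE 0.22), and the cadherin Cdh1 and Id2 rose by 0.49 (SE 0.06) and 0.60 (SE 0.08).

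Markers were counted in the same comparison. In WB against TS, where 18.2% of all genes were higher and 14.8% lower and most informative probe sets were called, 3 of 13 keratinocyte markers were higher and 5 lower, 5 of 8 inner root sheath markers higher and 0 lower, 2 of 7 bulge markers higher and 3 lower, 1 of 8 adipocyte markers higher and 6 lower, 2 of 11 macrophage markers higher and 8 lower, 2 of 7 sebaceous markers higher and 2 lower, 8 of 12 muscle markers and 3 of 9 T cell markers lower, and no liver marker called by limma. The 3' signal of actin relative to its 5' signal was higher by 5.53. Its part in the values of the members was not tested.

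Set against unstripped skin, WB skin had higher Trp63, Grhl1, Grhl3, Cebpb and Hopx 1428662_a_at and lower Ovol1 and Hopx 1451776_s_at. That was 6 higher and 2 lower of 18 (44.4%), or 8 of the 9 informative. Of all probe sets 23.7% were called (12.1% higher, 11.6% lower) and of informative ones 89.3% (45.7% higher, 43.6% lower), so this count too says little about the members. The groups did not overlap for 8 of the 18, all among the 9 informative, against 21.7% of all probe sets and 81.7% of informative ones. These comparisons share the WB arrays with the one before. Trp63 differed by 1.98 (SE 0.12, 3.95-fold, limma adjusted p = 7.3e-10), Grhl3 by 1.37 (SE 0.13), Cebpb by 1.14 (SE 0.07) and 1.28 (SE 0.08), and Grhl1 by 0.45 (SE 0.09, limma adjusted p = 0.000526), each without overlap. Hopx differed by 0.86 (SE 0.16) on 1428662_a_at and fell by 1.18 (SE 0.15) on 1451776_s_at. Ovol1 fell by 0.40 (SE 0.13, limma adjusted p = 0.0172), below every NT array. Ehf differed by 0.12 (95% interval -0.04 to 0.28, limma adjusted p = 0.212), and passed after quantile normalization (0.27, limma adjusted p = 0.00203), after median centring (0.16, 0.0445) and without NT 5 (0.18, 0.0269). Of the 55 other epidermal transcription factors 21 were higher and 10 lower, against 17.6% and 15.5% of all genes. Their median was 0.31 over informative ones beside 0.07 over all informative genes. The 31 calls fell among the 37 informative genes of the list. With 89.3% of informative probe sets called, this count says little about the list either. The split was 39 and 10 after median centring and 40 and 8 after quantile normalization, again with genes that are constant as deposited. Of the p63 targets 5 were higher and 5 lower of 18 (median -0.03), and of the targets of the other members 7 and 2 of 13 (median 0.57).

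Markers were counted again in this comparison. In WB against NT 17.6% of all genes were higher and 15.5% lower, and 89.3% of informative probe sets were called. Counts of calls alone thus say little about a list. Of the keratinocyte markers 8 of 13 were higher and 3 lower, and 2 of 7 bulge markers were higher and 3 lower. Lower with none higher were 10 of 12 muscle markers (median -6.31 over informative ones), 7 of 8 adipocyte markers (-2.24), 8 of 11 macrophage markers (-2.15), 3 of 9 T cell markers, 2 of 8 inner root sheath markers and 1 of 10 liver markers, while 1 of 7 sebaceous markers was higher and 3 lower. The summed level of the muscle markers was 13.51 to 14.39 in WB, of the adipocyte markers 12.83 to 12.96 and of the macrophage markers 13.69 to 14.09, below every NT array in each case. Their part in the values of the members was not tested.

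The order of groups was NT, TS, WB from lowest to highest for Trp63, Grhl3 and Cebpb, with each step called. Grhl1 followed the same order, but its step from NT to TS was not called in the main fit. Ovol1 ran WB, NT, TS, each step called. Hopx ran NT, TS, WB on 1428662_a_at and WB, NT, TS on 1451776_s_at, and on both the step from NT to TS was not called. Ehf had NT and WB as neighbours below TS, and their difference was not called in the main fit. Trp63, Grhl1, Grhl3, Ovol1 and Ehf each rest on a single informative probe set, so a disagreement like that of Hopx could not show. For the place of WB in every order, the extract and the 3' to 5' difference of its arrays cannot be told apart. Gata3, which is also used by the inner root sheath and by T cells, and Elf3 stood constant at 8.93 and 6.96 and cannot be placed.

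Genes most like each member were taken as the 3 with the highest Spearman correlation of deviations from the group means over 18 arrays, among 7443 genes; picking the top of so many selects high values, and the median rho over all genes was 0.00 to 0.08. For Ovol1 they were Aox4 (rho 0.866), Il1f9 (0.831) and Il1f6 (0.825), the last 2 encoding interleukin 36 cytokines. For Trp63 they were Wdr61 (0.882), Moxd1 (0.853) and the basal integrin Itga6 (0.839). Grhl3 was closest to Ric1 (0.862), Rps6ka6 (0.841) and Ankrd29 (0.839), and Grhl1 to Sh3yl1 (0.924), Ralgapb (0.922) and Relch (0.884). Hopx 1428662_a_at was closest to Nupr1 (0.928), Cyb5a (0.905) and Insig2 (0.893), Cebpb 1418901_at to Lig4 (0.856), Tex30 (0.833) and Pbx3 (0.822), and Ehf to Pcdh1 (0.800), Trbv1 (0.763) and Phyh (0.738).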

How the data were processed

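The deposited table gives 1 value per probe set and array. The deposited values, from 2.93 to 19.04 with array medians near 6.9, were read as log2 values; the authors' summarising, normalization and logarithm base are not given in the sources used here, and no detection call was used. After 64 control probe sets were set aside, 45037 were tested with limma 3.58.1 (R 4.3.3, lmFit, eBayes, two-sided). All 18 arrays were fitted with no covariate, with Benjamini-Hochberg adjustment per comparison. The method was tested on simulated data with independent normal errors. Those data held no 3' to 5' difference between arrays, so that run cannot speak for calls with WB. Folds assume base 2. For each of 18193 genes, the probe set with the highest mean among those annotated to it alone was used. The summed level of a list is the log2 of the summed unlogged values of its informative genes. The lists were other epidermal transcription factors, targets of p63 and of the other members, and markers of keratinocytes, T cells, inner root sheath, bulge, adipocytes, macrophages, sebaceous gland, muscle and liver; up to 4 genes per list and comparison were named by smallest p. Members and lists were chosen with earlier results of these data known. Permutation tests used scipy 1.17.1. Nothing in the labels beyond "biological" replicates says how mice map to arrays.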

Additional observations from a re-analysis of the deposited data

Results flagged for a closer look

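In 3 cases an array was far from the other 5 of its group for a member, by a test of the gap over the range (27 probe set and group combinations tested; chance gives about 1 in 20). Grhl3 on NT 6 was 8.23, with the next NT array at 7.58. Ovol1 on TS 5 was 8.32, with the next TS array at 8.90. Cebpb 1418901_at on WB 3 was 12.50, with the next WB array at 12.25. Leaving out any of these arrays changed no call of those probe sets.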

How the results depend on the processing

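The 27 differences of informative member probe sets kept their sign under every alternative run (quantile normalization, median centring, filters on dim or constant probe sets, array weights, fits of 12 arrays, the replicate block and leaving out each array). Calls changed for Grhl1 in TS against NT and in WB against TS and for Ehf in WB against NT, as given above. Counts of called members ranged without single arrays from 6 to 7 in TS against NT and from 8 to 9 in both comparisons with WB. When probe sets were averaged per gene, 5 member genes were called in WB against NT in place of 8 probe sets, where the opposite Hopx probe sets are averaged. Of the other epidermal transcription factors, quantile normalization called 49 in WB against TS (39 higher, 10 lower) and 48 in WB against NT (40, 8), and median centring 48 (38, 10) and 49 (39, 10), in place of 32 (20, 12) and 31 (21, 10); these scalings add a difference to probe sets that are constant as deposited. Without single arrays those counts were 15 to 18 in TS against NT, 31 to 33 in WB against TS and 30 to 31 in WB against NT. The Gapdh 3' minus 5' difference between TS and NT was 0.15 (exact permutation p = 0.0476, adjusted 0.0536) and ranged from 0.11 to 0.18 without single arrays; its unadjusted p passed 0.05 without 9 of the 12 arrays in turn, where 5 against 6 arrays were compared. With the replicate block 6, 8 and 8 member probe sets were called in the 3 comparisons; same-numbered arrays of different groups did not deviate together (r of -0.27 to 0.14), so the numbers were not taken as pairs. With no background signal to compare with, low values such as those of Ovol1, Grhl3 and Ehf give folds of unknown compression.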
